A study of Mus musculus with 6 samples.

Results

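The IL-6 family was examined in cultured MASMCs, smooth muscle cells of the mouse aorta, from Pdk4fl/fl and Pdk4SMKO mice through 10 genes, which were the ligands Il6, Il11 and Lif, the receptor chains Il6ra, Il6st, Lifr, Osmr and Il11ra1, the transcription factor Stat3 and its feedback inhibitor Socs3. They were taken by gene name from a table of 41721 genes, and all 10 were found. The table holds RNA-seq counts of 6 libraries, 3 per genotype, of cells cultured from abdominal aorta. Both genotypes carry homozygous floxed Pdk4 alleles made in C57BL/6J zygotes, and the Pdk4SMKO mice carry in addition the Myh11-icre/ERT2 transgene, a tamoxifen-inducible Cre driven by the smooth muscle Myh11 promoter. The methods describe tamoxifen for both genotypes, isolation from mice of 10 weeks, male animals throughout, and Ang II at 1 μM for 48 h. The labels name Ang II for all 6 libraries, without dose or time, so that no library of untreated cells enters the comparison. Nothing in the labels says whether the 3 cultures of a genotype came from different mice, and p-values then measure the spread between these cultures.

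Cytokines of the IL-6 family signal through gp130, the shared receptor chain encoded by Il6st. IL-6 and IL-11 first bind their own alpha chains, encoded by Il6ra and Il11ra1, and then bring gp130 chains together, whereas LIF pairs gp130 with the LIF receptor and mouse oncostatin M pairs it mainly with the oncostatin M receptor. The receptors activate JAK kinases, which phosphorylate STAT3, and STAT3 in turn induces Socs3, whose product binds gp130 and JAKs and stops the signal. In the vessel wall smooth muscle cells both make IL-6 and respond to cytokines of the family.

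The libraries held between 16526044 and 22481670 counted reads, and 14085 genes passed the filter on low counts and were tested with edgeR's quasi-likelihood test. A gene was called higher or lower at a Benjamini-Hochberg adjusted p under 0.05 over all tested genes together with a fold change of at least 2. Pdk4, the targeted gene, had 38.0, 35.0 and 31.8 CPM in Pdk4fl/fl and 4.82, 9.05 and 6.91 CPM in Pdk4SMKO cultures, where CPM is the read count scaled to library size with TMM factors. The genotypes differed across much of the transcriptome. With TMM factors 4616 genes were higher and 3733 lower in Pdk4SMKO cells, and with library size alone 6183 were higher and 2391 lower, and the median log2 fold change of all tested genes moved by 0.61 between these scalings. Correlations of log2 CPM were at least 0.986 within a genotype and at most 0.791 between genotypes. Of 8 smooth muscle markers tested, 4 were higher and 3 lower, and their sum lay at 784 to 810 CPM in Pdk4fl/fl and 722 to 953 CPM in Pdk4SMKO libraries. Acta2 was abundant and higher (233 ± 40.7 CPM in Pdk4fl/fl and 700.1 ± 74.4 in Pdk4SMKO, SD, n = 3 each), and Myh11 was low, with 8 to 10 reads per library in Pdk4fl/fl and 44 to 62 in Pdk4SMKO cells. Tagln (252 and 52.6 CPM), Smtn (279.7 and 57.4 CPM) and Cnn1 (19.5 and 6.87 CPM) were lower. Summed over 8 genes, markers of mesothelial cells lay at 74.2 to 99.9 CPM in Pdk4fl/fl and 722 to 1323 CPM in Pdk4SMKO libraries, with 7 of 7 tested genes called higher and 3 of the 8 at no more than 3 counts in each Pdk4fl/fl library. Markers of fibroblasts lay at 1108 to 1477 and 7903 to 10573 CPM (5 of 8 higher, 1 lower). Most of this sum was Col1a1 (619 and 5894 CPM) and Col1a2 (544 and 3208 CPM). Dcn, Lum and Cd34 were higher as well, Pdgfra (20.8 and 26.5 CPM) and Pi16 were not called, and Dpt was lower (21.1 and 10.4 CPM). Macrophage markers lay at 21.4 to 38.0 and 9.70 to 30.5 CPM (5 of 6 higher, 1 lower), with 5 of the 7 genes found at no more than 3 counts in each Pdk4fl/fl library. Cd68, the lower one, made up nearly all of the Pdk4fl/fl sum. Endothelial markers lay at 15.6 to 24.3 and 3.28 to 6.49 CPM (2 of 3 lower). Xist, the RNA of the inactive X chromosome in female cells, averaged 0.266 CPM in Pdk4fl/fl and 19.9 CPM in Pdk4SMKO libraries, although the methods describe male mice. The part of cell composition and of sex in the values below was not tested.

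Of the 10 IL-6 family genes, 9 passed the filter on low counts, and 7 of these 9 were called higher in Pdk4SMKO than in Pdk4fl/fl cells. They were Il6 and Lif, 4 of the 5 receptor chains (Il6ra, Il6st, Osmr and Il11ra1) and Socs3. None was called lower by edgeR or by DESeq2, although 2 members, Lifr and Stat3, lay lower at an unadjusted p under 0.05. Over all tested genes, 59.3% were called in either direction, 32.8% higher and 26.5% lower, so that a call alone did not set a member apart. By adjusted p alone 8 of the 9 members passed, against 79.1% of all tested genes. The median log2 fold change of the 9 members was 1.18, against 0.12 over all genes tested. In 7 members every Pdk4SMKO library lay above every Pdk4fl/fl library, in 1 member below, and in 2 members the libraries overlapped. Such separation without overlap was found in 81.8% of all tested genes, 43.5% in the higher and 38.3% in the lower direction. For each of the 8 members without overlap, exact two-sided permutation of the 6 libraries gave p = 0.1, the smallest value that 3 cultures against 3 can reach. In these bulk cultures, fewer cells of a type and less RNA per cell cannot be told apart.

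**Figure D1:**
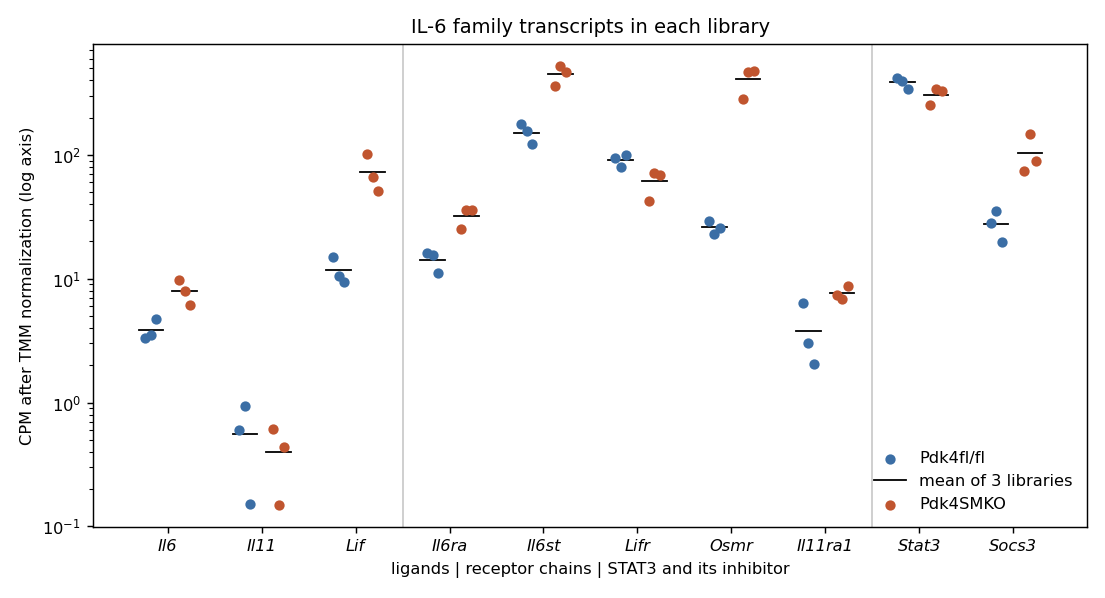
Level of each IL-6 family transcript in each library, in CPM after TMM normalization on a log axis, with 1 point per library (blue Pdk4fl/fl, orange Pdk4SMKO) and a bar at the mean of 3 libraries. Osmr shows the widest gap, from 23.1 to 29.4 CPM up to 283 to 479 CPM, while the points of Il11 and Stat3 overlap between genotypes.

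Among the ligands, Lif rose most. Lif (MGP_C57BL6NJ_G0018375) lies on chromosome 11 from 1273900 to 1291663 on the plus strand of the C57BL/6NJ strain assembly, whose identifiers the table uses, and encodes leukemia inhibitory factor. It was counted at 15.1, 10.5 and 9.37 CPM in the Pdk4fl/fl libraries and at 101, 66.8 and 51.6 CPM in the Pdk4SMKO libraries. Pdk4SMKO replicate 1 was the highest of the 3, and even the lowest Pdk4SMKO library lay more than 3-fold above the highest Pdk4fl/fl library. The mean rose 6.29-fold, or by 2.65 ± 0.27 on the log2 scale (SE, edgeR adjusted p = 7.83e-06).

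Il6 (MGP_C57BL6NJ_G0029810, chromosome 5 from 29687147 to 29698776, plus strand), which encodes interleukin-6, was a low-abundance transcript in both genotypes. It was counted at 3.33, 3.51 and 4.76 CPM in Pdk4fl/fl and at 9.69, 7.95 and 6.17 CPM in Pdk4SMKO libraries, from 50 to 64 and from 126 to 221 reads. The genotypes did not overlap, yet the gap between the nearest libraries, 4.76 and 6.17 CPM, was smaller than the range within Pdk4SMKO cells. The log2 fold change of 1.04 (95% interval 0.47 to 1.61, edgeR adjusted p = 0.00346) stood close to the 2-fold limit. It fell under that limit without Pdk4fl/fl replicate 1 (0.97) and without Pdk4SMKO replicate 1 (0.87), with adjusted p-values of 0.014 and 0.0118.

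Il11 (MGP_C57BL6NJ_G0032003, chromosome 7 from 1776208 to 1786664, minus strand), the gene of the fibrosis-associated cytokine interleukin-11, was barely counted. The Pdk4fl/fl libraries held 9, 17 and 2 reads and the Pdk4SMKO libraries 14, 3 and 9. The libraries overlapped, and the counts were too low for the gene to be tested. Without that filter, the log2 fold change was -0.46 with a 95% interval from -1.81 to 0.90 (edgeR adjusted p = 0.564), an interval that holds a 2-fold decrease, no difference and an increase, so that a difference was not detectable at this depth.

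The receptor chains held the largest difference of the family. Osmr (MGP_C57BL6NJ_G0022106, chromosome 15 from 3970473 to 4035753, minus strand), the signalling partner of gp130 for oncostatin M, was counted at 29.4, 23.1 and 25.8 CPM in Pdk4fl/fl and at 283, 470.0 and 479 CPM in Pdk4SMKO libraries. Every Pdk4SMKO library was more than 9 times the highest Pdk4fl/fl library, and Pdk4SMKO replicate 1 was the lowest of its group. The mean rose 15.7-fold, or by 3.98 ± 0.22 on the log2 scale (SE, edgeR adjusted p = 1.25e-07). A log2 fold change at least as high was found in 938 of the 14085 tested genes, or 6.66%. Summed fibroblast and mesothelial markers were higher in the same 3 libraries. The mesothelial sum was highest in Pdk4SMKO replicate 1 (1323, 722 and 828 CPM in replicates 1, 2 and 3). In that library Osmr and Il6st were lowest of the group and Lif and Il6 highest. The fibroblast sum was highest in replicate 2 (10277, 10573 and 7903 CPM). Most of it was Col1a1 (6769, 6314 and 4599 CPM) and Col1a2 (3224, 3647 and 2754 CPM). Of the fibroblast markers, Dcn (245, 553 and 503 CPM), Lum, Pdgfra and Dpt were lowest in replicate 1, and Col1a1, Col1a2, Pi16 and Cd34 in replicate 3. The part of these markers in the values of Osmr, Il6st, Lif and Il6 was not tested.

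Il6st (MGP_C57BL6NJ_G0021322, chromosome 13 from 118447105 to 118488425, plus strand), which encodes gp130, was counted at 177, 156 and 122 CPM in Pdk4fl/fl and at 358, 523 and 468 CPM in Pdk4SMKO libraries. The mean rose 2.97-fold (1.57 ± 0.18 on the log2 scale, SE, edgeR adjusted p = 2.01e-05). As with Osmr, Pdk4SMKO replicate 1 was the lowest library of its group and still lay well above all Pdk4fl/fl libraries.

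Il6ra (MGP_C57BL6NJ_G0027867, chromosome 3 from 93491149 to 93550694, minus strand), the chain that binds IL-6, was counted at 16.2, 15.5 and 11.0 CPM in Pdk4fl/fl and at 25.4, 35.9 and 35.6 CPM in Pdk4SMKO libraries. It rose by 1.18 ± 0.20 on the log2 scale (SE, 95% interval 0.74 to 1.62, edgeR adjusted p = 0.000295). An antisense gene, Gm42809, overlaps Il6ra, but it held at most 4 reads in any library.

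Il11ra1 (MGP_C57BL6NJ_G0028585, chromosome 4 from 41218688 to 41237220, plus strand), the chain that binds IL-11, was counted at 6.39, 3.02 and 2.04 CPM in Pdk4fl/fl and at 7.46, 6.86 and 8.72 CPM in Pdk4SMKO libraries. Pdk4fl/fl replicate 1 reached nearly the level of the Pdk4SMKO libraries. The log2 fold change of 1.00 (95% interval 0.20 to 1.81, edgeR adjusted p = 0.0264) just met the 2-fold limit, and this call was lost in more alternatives than any other of the 7. It was lost without Pdk4fl/fl replicate 2 (log2 fold change 0.87), Pdk4fl/fl replicate 3 (0.71) or Pdk4SMKO replicate 3 (0.90), with RLE factors (0.97) and with DESeq2 (0.97), and the value reached 1.60 without Pdk4fl/fl replicate 1. The span of Il11ra1 overlaps that of Galt, which is counted as well and was lower, at 33.9 CPM in Pdk4fl/fl and 8.66 CPM in Pdk4SMKO cells. Use of strand in the counting is not given in the sources used here, and mouse has near-identical copies of this receptor gene among which reads could be split.

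Lifr (MGP_C57BL6NJ_G0022107, chromosome 15 from 4301837 to 4373395, plus strand), the partner of gp130 for LIF, was the receptor chain that was not called. It was counted at 94.2, 80.4 and 101 CPM in Pdk4fl/fl and at 42.6, 71.1 and 69.3 CPM in Pdk4SMKO libraries. All Pdk4SMKO libraries lay below all Pdk4fl/fl libraries, with Pdk4SMKO replicate 1 the lowest. The log2 fold change of -0.59 (95% interval -1.02 to -0.16, edgeR adjusted p = 0.0169) did not reach 2-fold, and with library size alone as the scaling it was 0.015.

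**Figure D2:**
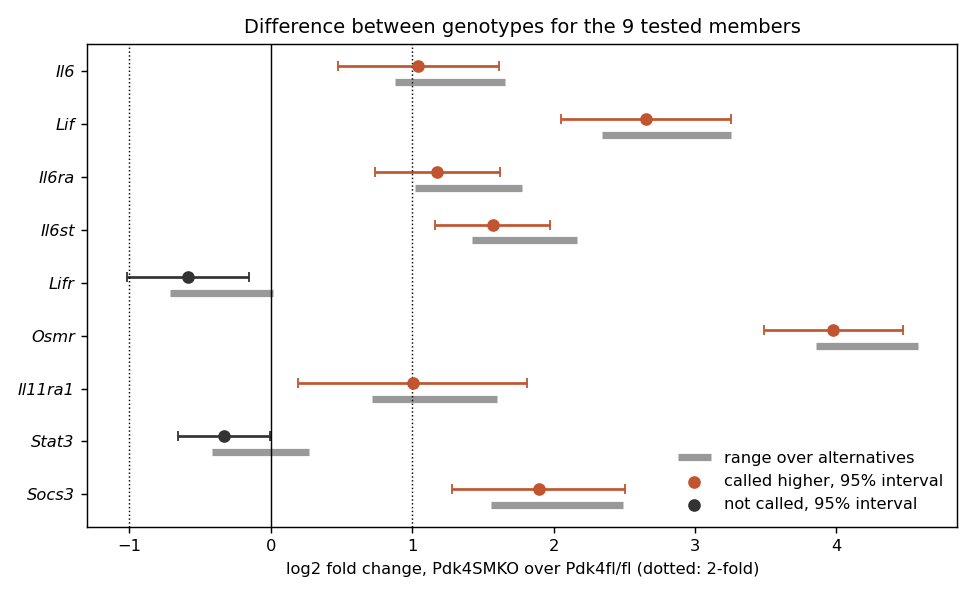
Log2 fold change of the 9 tested members, Pdk4SMKO over Pdk4fl/fl, with its 95% interval (orange called higher, dark grey not called) and, as a grey bar, the range over the alternative scalings, filters and tool, the replicate block and the fits without 1 library. Osmr, Lif, Socs3 and Il6st lie clear of the dotted 2-fold line, and the intervals of Il6, Il6ra and Il11ra1 span it. The bars of Lifr and Stat3 reach across 0.

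Lifr and Osmr, whose products both pair with gp130, lie on the same chromosome, and their transcripts stood in opposite order in the genotypes. Ratios of reads within a library, corrected for transcript length, do not depend on the scaling between libraries. Osmr stood at 0.266, 0.245 and 0.219 times Lifr in the Pdk4fl/fl libraries and at 5.67, 5.63 and 5.88 times Lifr in the Pdk4SMKO libraries. Each library thus had more Lifr than Osmr in Pdk4fl/fl and more Osmr than Lifr in Pdk4SMKO cells, a 23.6-fold difference in the ratio. This pair was chosen after its values were seen, and the difference is given without a test.

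The other chains were set against Il6st, in a family of 7 ratios over which p was adjusted and could not fall under 0.1. Osmr per Il6st was 0.0752, 0.0672 and 0.0963 in Pdk4fl/fl and 0.359, 0.407 and 0.464 in Pdk4SMKO libraries. Lifr per Il6st was 0.283, 0.274 and 0.441 in Pdk4fl/fl and 0.0633, 0.0724 and 0.0789 in Pdk4SMKO libraries. Neither ratio overlapped between genotypes, and the genotype means differed 5.19-fold and 0.220-fold, Pdk4SMKO over Pdk4fl/fl (exact two-sided permutation test, adjusted p = 0.14 for both).
Il6ra per Il6st differed less, at 0.0601, 0.0656 and 0.0600 in Pdk4fl/fl and 0.0468, 0.0452 and 0.0501 in Pdk4SMKO libraries. Each Pdk4SMKO library had less Il6ra per Il6st than each Pdk4fl/fl library (exact two-sided permutation test, adjusted p = 0.14). Il11ra1 per Il6st overlapped between genotypes (0.0638 to 0.135 and 0.0491 to 0.0779, exact two-sided permutation test, adjusted p = 0.5).
Between the ligands, Lif per Il11 was higher without overlap (5.01 to 22.8 in Pdk4fl/fl and 50.7 to 176 in Pdk4SMKO cells), while Il6 per Il11 overlapped (3.23 to 22.3 and 11.7 to 40.2), both resting on the few reads of Il11 (exact two-sided permutation tests, adjusted p = 0.14 and 0.35).

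**Figure D3:**
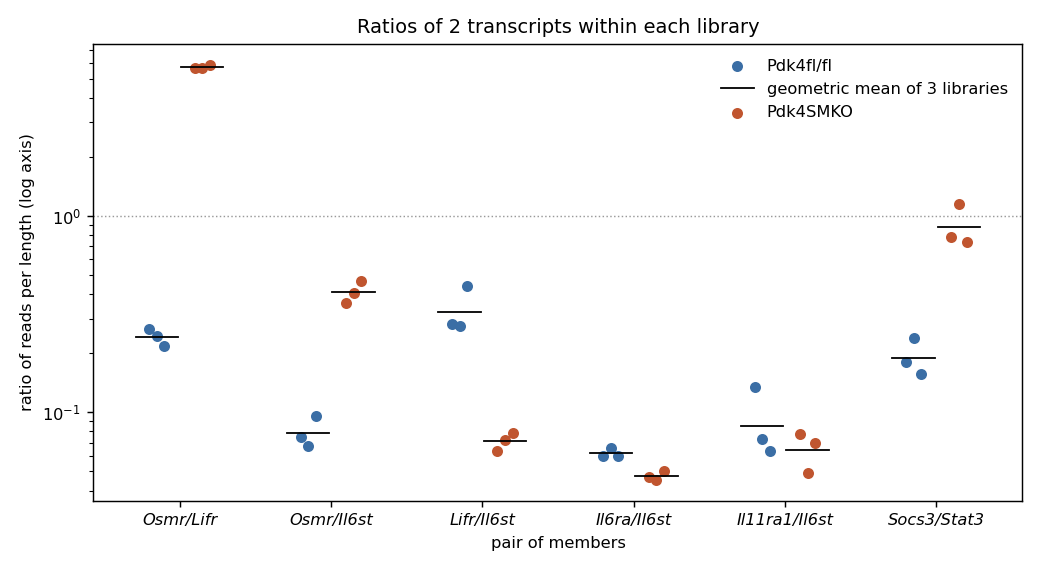
Ratio of the reads per transcript length of 2 members within each library, on a log axis, with 1 point per library (blue Pdk4fl/fl, orange Pdk4SMKO) and a bar at the geometric mean of 3 libraries. Osmr/Lifr crosses the dotted line of equal levels between genotypes, from at most 0.266 to at least 5.63, and Il11ra1/Il6st overlaps.

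Downstream of the receptors, Socs3 was called and Stat3 was not. Stat3 (MGP_C57BL6NJ_G0019564, chromosome 11 from 106877999 to 106933118, minus strand) was counted at 418, 397 and 340.2 CPM in Pdk4fl/fl and at 253, 340.3 and 327 CPM in Pdk4SMKO libraries. The libraries overlapped by a small margin (exact two-sided permutation test, p = 0.2). The log2 fold change was -0.33 with a 95% interval from -0.65 to -0.0039 (edgeR adjusted p = 0.0597), an interval inside the 2-fold limits, and with library size alone the value was 0.27. These are levels of RNA, and phosphorylation of STAT3 was not measured in these libraries.
Socs3 (MGP_C57BL6NJ_G0019851, chromosome 11 from 126002985 to 126006953, minus strand), the feedback inhibitor, was counted at 28.0, 35.2 and 19.9 CPM in Pdk4fl/fl and at 73.7, 147 and 90.0 CPM in Pdk4SMKO libraries. Pdk4SMKO replicate 2 was the highest, and the lowest Pdk4SMKO library was more than 2 times the highest Pdk4fl/fl library. The mean rose 3.74-fold (1.90 ± 0.27 on the log2 scale, SE, edgeR adjusted p = 0.000104). Per length, Socs3 stood at 0.180, 0.238 and 0.157 times Stat3 in Pdk4fl/fl and at 0.780, 1.16 and 0.739 times Stat3 in Pdk4SMKO libraries, without overlap (exact two-sided permutation test, adjusted p = 0.14).

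Ordered by level per length, in CPM per kilobase of the gene length given in the table, Stat3 led in Pdk4fl/fl cells at 49.7 ± 5.21 (SD, n = 3), followed by Il6st at 27.6 ± 5.14. Socs3 (9.58 ± 2.65) and Lifr (8.89 ± 1.00) came next and overlapped with each other. Lif (2.68), Il11ra1 (2.59), Osmr (2.15), Il6ra (1.71) and Il6 (1.70 CPM per kilobase) followed, each overlapping with the next, and Il11 was last at 0.282. In Pdk4SMKO cells Il6st led at 81.9 ± 15.3 CPM per kilobase (SD, n = 3). Stat3 (39.5 ± 6.02), Socs3 (35.8 ± 13.2) and Osmr (33.9 ± 9.11) formed a second tier in which neighbours overlapped. Lif stood at 16.8 ± 5.87, and below it Lifr (5.91) and Il11ra1 (5.22) overlapped, as did Il6ra (3.87) and Il6 (3.50), with Il11 last at 0.202 CPM per kilobase. Osmr held rank 7 in Pdk4fl/fl and rank 4 in Pdk4SMKO cells, and Lifr ranks 4 and 6.

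Promoter sequences are shown for Socs3, Il6 and Lif, the feedback inhibitor and both ligands that rose, as the 250 bases before the RefSeq start on the GRCm38.p6 assembly, which is not the assembly of the counts. All 10 members had at least 1 window among 32851 windows of 250 bases before and 50 after a start, 13 windows in all. Capitals mark matches to a STAT motif (TTCNNNGAA), an AP-1 motif (TGANTCA) or an NF-kB motif (GGGA and TTCC with any 2 bases between them), searched on both strands. No match overlaps another.
Socs3 (chr11:117969367-117969616, minus strand): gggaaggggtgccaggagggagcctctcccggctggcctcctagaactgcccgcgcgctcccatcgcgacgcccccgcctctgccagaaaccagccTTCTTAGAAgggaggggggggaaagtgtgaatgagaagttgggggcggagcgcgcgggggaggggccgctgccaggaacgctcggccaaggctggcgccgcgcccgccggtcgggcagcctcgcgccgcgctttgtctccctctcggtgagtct
Il6 (chr5:30012864-30013113, plus strand): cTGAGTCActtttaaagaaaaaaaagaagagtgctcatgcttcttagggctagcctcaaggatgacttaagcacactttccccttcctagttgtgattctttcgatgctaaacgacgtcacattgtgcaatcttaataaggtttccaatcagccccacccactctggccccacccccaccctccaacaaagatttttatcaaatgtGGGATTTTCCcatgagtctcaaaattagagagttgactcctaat
Lif (chr11:4257318-4257567, plus strand): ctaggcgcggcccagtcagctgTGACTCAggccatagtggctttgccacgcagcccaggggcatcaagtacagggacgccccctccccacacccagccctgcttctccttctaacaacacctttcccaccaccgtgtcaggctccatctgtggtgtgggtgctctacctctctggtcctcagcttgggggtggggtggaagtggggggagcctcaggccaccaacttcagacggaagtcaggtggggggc
The Socs3 match to the STAT motif begins 154 bases before the start. It was the one window of 13 with this motif, which 8.30% of all windows hold. The Il6 window holds an AP-1 match 249 bases and an NF-kB match 44 bases before the start, the latter a motif found in 1.47% of all windows. The Lif window holds an AP-1 match 228 bases before the start. AP-1 matches were found in 4 of the 13 windows and in 7.81% of all windows. The others lie in a window of Il11, 98 bases before its start, and in that of Osmr, beginning at base 4 after the start. The windows of Il6ra, Il6st, Lifr, Il11ra1 and Stat3 hold none of these letters. The matches are a description of the sequence, and binding was not measured.

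The other genes of the pathway were followed in 5 lists by role. Of 78 genes listed, 73 were found by name and 63 were tested, of which 23 were higher and 17 lower, or 63.5% called against 59.3% of all tested genes. The spans of several listed genes overlap those of other genes, among them Jak1 with Raver2, Adam17 with Iah1 and Jak3 with Insl3.

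Of 9 further ligands or ligand subunits, 3 passed the filter on low counts, among them Ctf1 and Clcf1. Ctf1, which encodes cardiotrophin-1, rose from 0.799, 0.878 and 1.06 CPM in Pdk4fl/fl to 4.21, 3.68 and 2.45 CPM in Pdk4SMKO libraries (log2 fold change 1.92, edgeR adjusted p = 0.000498). Its span overlaps that of Ctf2, which held at most 3 reads. Clcf1, cardiotrophin-like cytokine, stood at 30.2 ± 1.79 and 51.3 ± 9.66 CPM (SD, n = 3 each) and did not reach 2-fold. Osm, the ligand of the receptor chain that rose most, held 0 reads in each Pdk4fl/fl library and 3, 3 and 0 reads in the Pdk4SMKO libraries, where a count of 3 or fewer was treated as undetected. Il31, Ebi3 and Ctf2 were likewise at 3 reads or fewer in every library. Il27 held 3, 7 and 1 reads against 0 in each Pdk4SMKO library, and Cntf 1 to 19 reads against 5 to 8.

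Among the other receptors and the proteases that shed the IL-6 receptor, 4 of the 6 genes found were tested, and 2 were higher and 2 lower. Adam10 and Adam17, the 2 main sheddases of the IL-6 receptor, changed in opposite directions. Adam10 rose from 51.1, 50.8 and 45.2 to 222, 230.0 and 243 CPM (2.24 ± 0.12 on the log2 scale, SE, edgeR adjusted p = 8.72e-08). Adam17 stood at 319, 284 and 297 CPM in Pdk4fl/fl and at 81.7, 68.4 and 80.1 CPM in Pdk4SMKO libraries (-1.97 ± 0.12 on the log2 scale, SE, edgeR adjusted p = 2.59e-07). Per length, Adam17 averaged 41.9 and Adam10 9.98 CPM per kilobase in Pdk4fl/fl cells, and 10.7 and 47.1 CPM per kilobase in Pdk4SMKO cells. Il27ra, the specific chain of the IL-27 receptor, was at 0.289 and 1.67 CPM (log2 fold change 2.47), and Il12rb1, a chain of the IL-12 and IL-23 receptors, at 3.85 and 0.531 CPM (log2 fold change -2.85). Cntfr, the CNTF receptor, held 2 to 7 reads per library, and Il31ra at most 1.

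Of the JAK kinases, other STATs and adaptors, 3 of 14 tested genes were higher, 1 lower and 10 not called, or 28.6% called against 59.3% of all tested genes. Jak1, the main kinase bound to gp130, fell from 367, 376 and 314 CPM to 149, 168 and 177 CPM (-1.10 ± 0.13 on the log2 scale, SE, edgeR adjusted p = 1.96e-05). With upper-quartile factors, library size alone or at least 10 counts in every library, 0 genes of the list were called lower, so that this call was lost. Jak2 (69.7 ± 9.02 and 59.3 ± 4.62 CPM) and Tyk2 (28.8 ± 4.23 and 28.5 ± 4.95 CPM, SD, n = 3 each), the other gp130-associated kinases, were named after their values were seen and overlapped between genotypes. Jak3, the kinase of the common gamma chain receptors, held 0, 1 and 1 reads in the Pdk4fl/fl libraries and 332, 375 and 255 in the Pdk4SMKO libraries, at least 77.3-fold higher with 3 reads per library as the floor. Stat6 was also higher (36.3 and 121 CPM, log2 fold change 1.73).

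Of 15 inhibitors of JAK-STAT signalling tested beside Socs3, 4 were higher, 5 lower and 6 not called, or 60% called, a share near the 59.3% of all tested genes. Socs5, a relative of Socs3, rose from 31.8, 25.7 and 27.6 CPM to 150, 172 and 172 CPM (2.54 ± 0.13 on the log2 scale, SE, edgeR adjusted p = 9.23e-08). Ptpn6, which encodes the phosphatase SHP-1 of blood cells, held 1, 3 and 0 reads in Pdk4fl/fl and 65, 37 and 47 in Pdk4SMKO libraries, at least 11.8-fold higher. Of the macrophage markers 5 of 6 were also higher, while Cd68, the other one, was lower (31.2 and 4.29 CPM). The sum of these markers was lower in 2 of the 3 Pdk4SMKO libraries than in any Pdk4fl/fl library. In Pdk4fl/fl that sum was nearly all Cd68 (37.8, 34.5 and 21.2 CPM). C1qa, C1qb, Adgre1 and Tyrobp held 0 reads in each Pdk4fl/fl library, and C1qb held 170, 69 and 42 reads in the Pdk4SMKO libraries. The part of the macrophage markers in the Ptpn6 and Jak3 values was not tested. Pias3, an inhibitor of STAT3, stood at 12.9 and 27.5 CPM (log2 fold change 1.09). In the other direction, Pias4 (169 and 30.4 CPM, log2 fold change -2.48), the phosphatase gene Ptpn2 (145 and 31.0 CPM, log2 fold change -2.23) and Pias2 (log2 fold change -1.76) were lower. The remaining called genes were 1 higher (log2 fold change 1.03) and 2 lower (-1.04 and -1.68). Socs1, a relative of Socs3 named after its values were seen, was low at 1.58 ± 0.320 and 1.12 ± 0.288 CPM with overlap.

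Genes known as targets of STAT3 were called in 22 of 27 cases tested, 13 higher and 9 lower, or 81.5% called against 59.3% of all tested genes (32.8% higher and 26.5% lower), with 0.83 as the median on the log2 scale, against 0.12 over all tested genes. Serpina3n, an acute phase protease inhibitor, stood at 1.07, 0.274 and 0.378 CPM in Pdk4fl/fl and at 17.5, 104 and 53.4 CPM in Pdk4SMKO libraries (6.68 ± 0.75 on the log2 scale, SE, edgeR adjusted p = 1.63e-05). Steap4, a metalloreductase, stood at 0.218 and 15.7 CPM (log2 fold change 6.27), and Hgf, hepatocyte growth factor, at no more than 1 read in each Pdk4fl/fl library and at 18, 81 and 46 reads in Pdk4SMKO libraries, at least 11.96-fold higher. The other 10 higher genes had log2 fold changes from 1.27 to 5.17. Saa3, another acute phase gene, was lower, at 85.7, 74.9 and 150 CPM in Pdk4fl/fl and 4.03, 6.71 and 5.15 CPM in Pdk4SMKO libraries (-4.29 ± 0.30 on the log2 scale, SE, edgeR adjusted p = 5.91e-07). Junb, an AP-1 subunit and immediate early gene, stood at 4639 ± 934 and 365 ± 104 CPM (SD, n = 3 each, log2 fold change -3.67), and Icam1, an adhesion molecule, at 110 ± 17.1 and 21.3 ± 6.18 CPM (log2 fold change -2.37). The other 6 lower genes had log2 fold changes from -2.19 to -1.12. Several genes of this list, among them Saa3, Icam1 and Junb, are also induced by NF-kB or by growth factor signals. Serpina3n and Saa3 belong to clusters of similar genes, among which the counting could split reads.

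**Figure D4:**
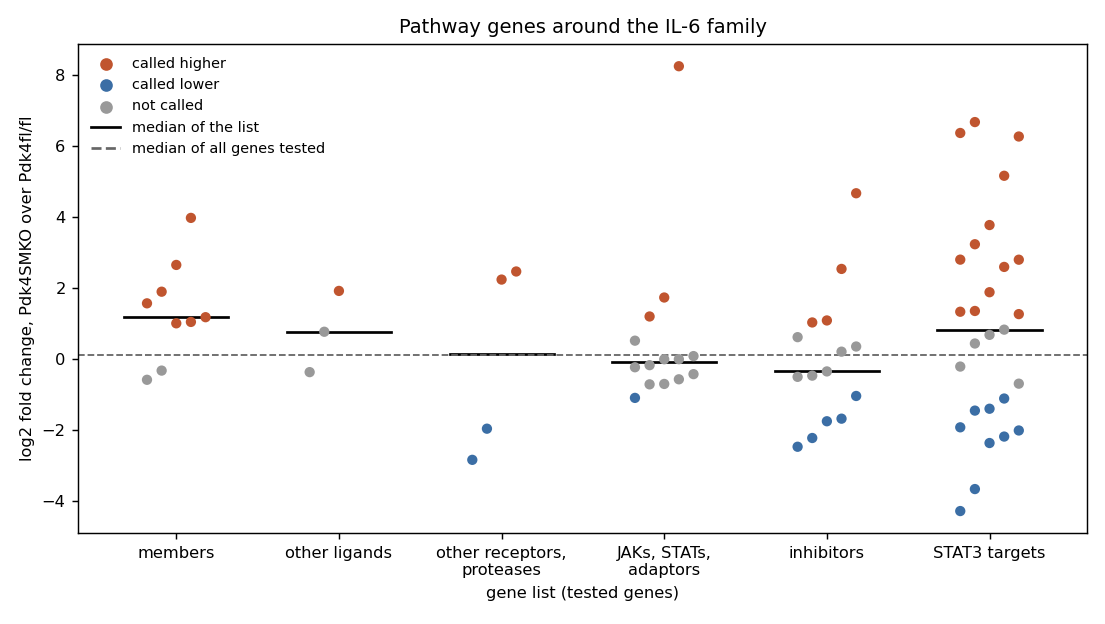
Log2 fold change, Pdk4SMKO over Pdk4fl/fl, of each tested gene in the IL-6 family and in 5 lists of pathway genes (orange called higher, blue called lower, grey not called), with the median of each list as a bar and that of all tested genes, 0.12, as a dashed line. The members have a median of 1.18, and the STAT3 targets spread from -4.29 to 6.68.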

How the data were processed

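Total RNA of Ang II-treated MASMCs was sequenced in 6 libraries, 3 per genotype, grouped by their labels. The values the authors deposited are raw counts per gene, unnormalized, in 1 column for each library. The aligner, the counting program and the use of strand are not given in the sources used here. The submitters' processing notes name the build GRCm39, while 41096 of 41721 identifiers belong to the annotation of the C57BL/6NJ strain, and coordinates are given as in the table. The labels name a SMARTER kit, the methods NEBNext Ultra. Counts were filtered with filterByExpr, scaled by TMM and tested on genotype alone with the quasi-likelihood test of edgeR 4.0.16 in R 4.3.3 (limma 3.58.1), and DESeq2 1.42.0 was an alternative. The standard error of a log2 fold change is its size divided by the square root of the F statistic. The fits were run on simulated counts in which few genes changed, with rises and falls drawn alike. That setting differs from these data, where 59.3% of tested genes were called, so it did not test the scaling. Single values were compared by exact permutation over libraries, ratios with 0.5 added to each count. Total counts of 16526044 to 22481670 put 3 reads, the floor, at 0.132 to 0.227 CPM, and floors cover counting error alone. Named genes were Pdk4, the members, the further ligands and receptors, and in each list up to 3 called genes with the largest log2 fold change per direction and at least 1 CPM. Members and lists were chosen with earlier results of these data known, and the promoter motifs after the values were seen. In the lists, Cebpd, Il11ra2, Socs2, Stat5a, Vegfa and Lyz2 had no row by that name. Columns of other samples were not present. Alternatives were other scalings, filters, DESeq2, the replicate number as a block, no fold limit and each library left out. Values of some genes that meet the naming rule are not reported here.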

Additional observations from a re-analysis of the deposited data

How the results depend on the processing

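The 7 calls of higher members stayed at 7 with upper-quartile factors, library size alone, no filter, at least 10 counts in every library and the replicate block, and were 6 with RLE factors or DESeq2, where Il11ra1 had a log2 fold change of 0.97 in both. Leaving out 1 library gave 6 to 7 higher and 0 lower members, 22 to 23 higher and 16 to 17 lower pathway genes, and 4524 to 4623 higher and 3624 to 3801 lower genes over the whole table. Without the fold limit, 1 member, Lifr, was lower. With library size alone the log2 fold changes of Lifr (0.015) and Stat3 (0.27) turned upward, all genes shifted by 0.61, and 2391 genes were lower in place of 3733. Upper-quartile factors shifted all genes by 0.21. Il6, Il6ra, Il6st, Lif, Osmr and Socs3 kept their direction in every alternative, with log2 fold changes of at least 0.87, 1.02, 1.43, 2.34, 3.85 and 1.56 over all fits. Adjusted p over the alternatives that keep all libraries ran from 0.000157 to 0.00819 for Il6, from 0.00129 to 0.0305 for Il11ra1, from 0.00328 to 0.945 for Lifr and from 0.0387 to 0.457 for Stat3. No within-library ratio changed direction when a library was left out.

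The replicate numbers do not mark a shared mouse or day in the labels. Deviations of same-numbered libraries from their genotype mean correlated at 0.0505, 0.113 and 0.261 for replicates 1, 2 and 3, and the block left 7 members higher, with 4577 genes higher and 3704 lower. Depth limited Il11, Osm and the other ligands with few reads.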
